A study of Drosophila melanogaster with 6 samples.

Results

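Arm 3R is the right arm of Drosophila melanogaster chromosome 3, and its assembled sequence is 27.9 Mb long in FlyBase release 5. The HP2 regions described here are all regions placed on the sequence named 3R, not on the separate scaffold 3RHet. They number 572 of 5179 in the combined list of the replicate set. In the lists of single replicates they number 110 of 2488 (replicate 1), 257 of 3132 (replicate 2) and 285 of 3190 (replicate 3).

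HP2 is encoded by Su(var)2-HP2 and is a partner of the heterochromatin protein HP1a. HP1a recognises methylated lysine 9 of histone H3 and is the core protein of fly heterochromatin, the condensed, repeat-rich chromatin beside centromeres and at telomeres. HP1a also occupies scattered places in the gene-rich arms. On 3R the low-coordinate end of the sequence faces the centromere and the high-coordinate end faces the telomere.

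All samples came from Oregon-R (Oregon-R-modENCODE), a wild-type laboratory strain, as embryos of 14 to 16 h, crosslinked with 1.8% formaldehyde, with no mutant, transgene or treatment in any sample. HP2-bound DNA was pulled down with the antibody Ab2-90 and sequenced (ChIP-seq) in 3 replicates, each with its own input library, so 6 libraries in all. Whole embryos were used, so the regions are an average over all cell types of the embryo. No source used here gives read totals, so depth is unknown. Nothing in the labels tells if replicates came from separate embryo collections, so differences between them may be technical. The exact sign-flip permutation test used below gives its smallest p, 0.25, whenever all 3 replicates go the same way. That p-value then says nothing about the size of their spread.

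HP2 regions on 3R were few, short and spread along the whole arm. They covered 0.710% of its bases in replicate 1, 1.71% in replicate 2 and 1.95% in replicate 3, a mean of 1.46% ± 0.66 (SD, n = 3), and 3.43% in the combined list. Replicate 1 was the low one, with under 1% covered. 3R makes up 19.97% of the 139.7 Mb of sequence considered, with the sequence named Uextra left out. It held only 4.42%, 8.21% and 8.93% of all regions in replicates 1, 2 and 3. Its share of all bases inside regions was smaller still, at 2.91%, 3.67% and 4.57%. These totals take in regions on sequences outside the long arms, such as 3RHet. The other long arms alone are set beside 3R below.

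Median region length on 3R was similar between the lists, while single regions varied. It was 1723, 1818 and 1861 bp in replicates 1, 2 and 3, and 1604 bp in the combined list. The longest region was 5163 bp in replicate 1, 5763 bp in replicate 2 and 6722 bp in replicate 3, and no 3R region of any list exceeded 10 kb. Regions over 3 kb numbered 2, 10 and 13 in the 3 replicates and 20 in the combined list.

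The other long arms, 2L, 2R, 3L and X, were covered over 4.79% ± 1.43 (SD, n = 3) together. 3R lay below them in 3 of 3 replicates, with differences of -2.43, -3.88 and -3.68 percentage points (exact sign-flip permutation test, two-sided, p = 0.25, the smallest that 3 replicates allow). These values depend on how far each arm's sequence runs towards its centromere, which was not tested. The 2 Mb at the centromere side of each arm, counted on its own sequence, were then left out. In what remained, 3R was covered over 1.23% ± 0.55 and the other arms over 1.71% ± 0.75 (SD, n = 3 each). The difference was then -0.249, -0.634 and -0.563 percentage points, smaller but in the same direction in 3 of 3 replicates (exact sign-flip permutation test, two-sided, p = 0.25). Counted as regions, the same parts held 6.74 ± 2.95 per Mb on 3R and 8.77 ± 3.68 per Mb on the other arms (SD, n = 3 each). Single arms came closer to 3R than this pool. Over its whole length X was covered over 2.10% ± 1.03, and without the proximal 2 Mb 3L was covered over 1.35% ± 0.59, with 7.07 ± 2.86 regions per Mb (SD, n = 3 each). The 3R minus 3L difference in coverage was then -0.114 ± 0.036 percentage points, in the same direction in 3 of 3 replicates (SD, n = 3; exact sign-flip permutation test, two-sided, p = 0.25).

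**Figure D1:**
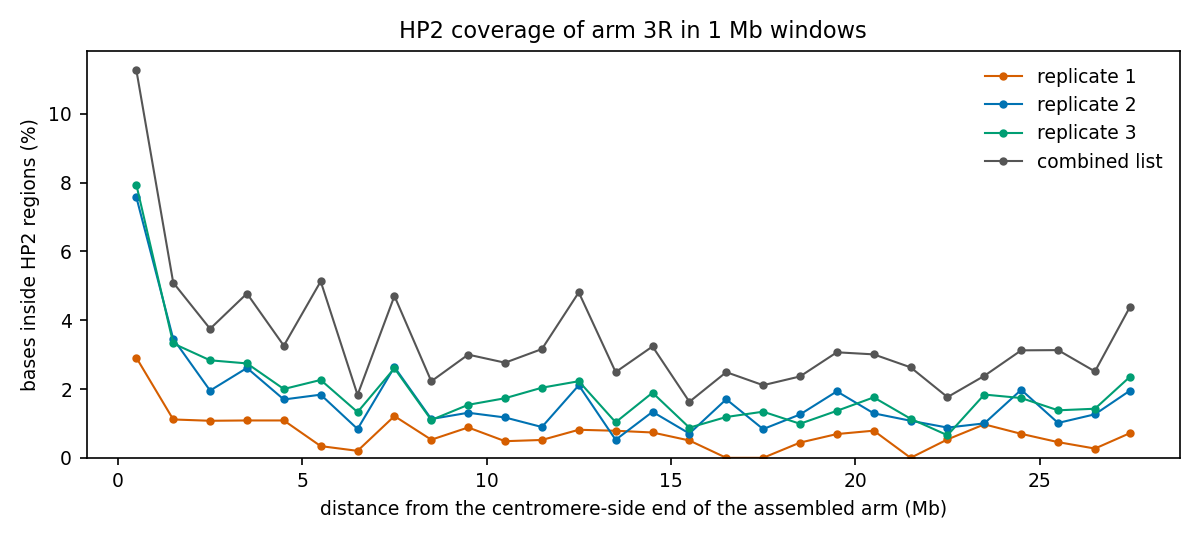
Percent of bases inside HP2 regions (y axis) in 28 windows of 1 Mb along 3R (x axis, distance in Mb from the centromere-side end; the last window is shorter), with 1 line per list. The first window is the highest in all 4 lists, at 2.91%, 7.58%, 7.94% and 11.3% in replicates 1, 2 and 3 and the combined list.

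The centromere-side end of 3R carried the densest HP2 of the arm, within a short distance. The first 1 Mb window ranked first of 28 in each of the 4 lists. In the first 250 kb, regions covered 7.74% in replicate 1, 18.1% in replicate 2 and 21.2% in replicate 3, a mean of 15.7% ± 7.03 (SD, n = 3). From 250 kb to 2 Mb coverage was 1.20%, 3.73% and 3.41%. The first 250 kb was thus higher in 3 of 3 replicates (exact sign-flip permutation test, two-sided, p = 0.25). The 250 kb limit was chosen from this same profile, so that direction was built in and the comparison is a description. The stretch from 250 kb to 2 Mb in turn lay above the arm beyond 2 Mb, which was covered over 0.609%, 1.42% and 1.67% (exact sign-flip permutation test, two-sided, p = 0.25). In the replicate lists the last region before 300 kb ended at 246389, 280291 and 280347 in replicates 1, 2 and 3, and the next one began 332.2, 185.8 and 186.1 kb further on. This gap was longer than most on 3R, but not among the longest. In replicates 1, 2 and 3, 75% of all gaps were up to 339.3, 162.5 and 131.7 kb. In the same order, 90% were up to 568.9, 272.9 and 265.8 kb. The combined list had a single region between 280282 and 466104, from 304054 to 305234, found in no replicate list.

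The very first region of the arm was among its strongest in every list. Each list starts at base 2 of 3R, and the region ran to 2467 in replicate 1, to 3717 in replicate 2, to 6723 in replicate 3 and to 6210 in the combined list. The score, read as a log2 value with an unknown zero in each list, was 1.96, 2.01 and 1.67 in replicates 1, 2 and 3. By score it ranked 2 of 110, 1 of 257 and 5 of 285. The sequence starts there, so the centromere-side edge of this region was not observed. The separate 3RHet scaffold was not joined to it.

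Set beside 2L, 2R and 3L, the first 250 kb of the 3R sequence was sparse in HP2. Each window was counted from where the sequence of its own arm stops, and 3RHet was left out. Whether these windows lie equally near the centromere, or equally deep in heterochromatin, was not tested. The comparison thus describes the sequences as assembled, and does not show that 3R has little HP2 beside its centromere. The first 250 kb was covered over 64.8% ± 13.1 on 2L, 71.9% ± 9.92 on 2R and 57.5% ± 17.5 on 3L (SD, n = 3 each), and 3R lay below each of them in 3 of 3 replicates, with differences from -30.6 to -61.3 percentage points (exact sign-flip permutation test, two-sided, p = 0.25 each). X was lower than 3R, at 1.11% ± 0.48 (SD, n = 3), in 3 of 3 replicates (exact sign-flip permutation test, two-sided, p = 0.25). The 250 kb limit came from the 3R profile, which favours a high 3R value, so the comparison with X is a description. From 250 kb to 2 Mb, 3R was covered over 2.78% ± 1.38 and X over 3.18% ± 1.00 (SD, n = 3 each). There 3R was the lower of the pair in 3 of 3 replicates, with differences of -0.883, -0.287 and -0.042 percentage points (exact sign-flip permutation test, two-sided, p = 0.25). The same limit takes the dense 3R block out of this stretch, which favours a low 3R value, so this too is a description. Over the whole proximal 2 Mb 3R was above X in 3 of 3 replicates, by 0.126, 1.83 and 2.44 percentage points (exact sign-flip permutation test, two-sided, p = 0.25). Region length separated the arms as well. In the proximal 2 Mb the longest region of the replicate lists was 6.72 kb on 3R and 6.97 kb on X, against 82.4 kb on 2L, 110.95 kb on 2R and 56.6 kb on 3L.

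**Figure D2:**
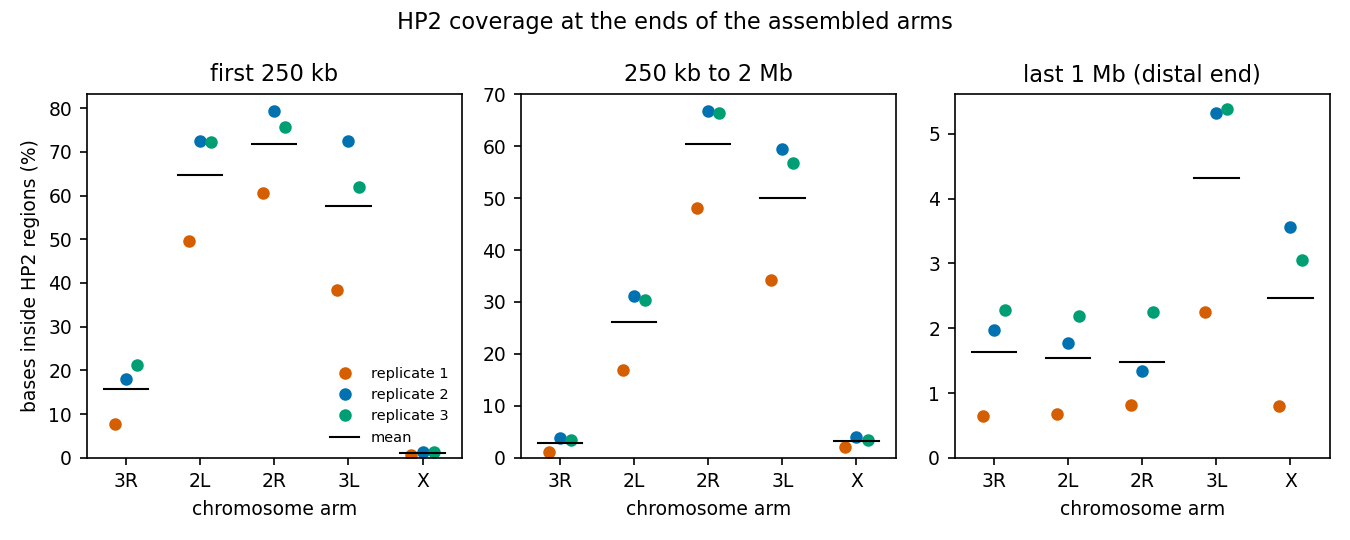
Percent of bases inside HP2 regions (y axis, a scale of its own in each panel) for 3R, 2L, 2R, 3L and X in the first 250 kb at the centromere side, from 250 kb to 2 Mb, and in the 1 Mb at the distal end. Points are replicates and lines their means; 3R lies at 15.7%, 2.78% and 1.64% on average, well under 2L, 2R and 3L in the first pair of panels.

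The distal end of 3R showed no block as dense as that at the centromere side. Replicates 1, 2 and 3 had 4, 9 and 11 regions in the last 1 Mb, which covered 0.652%, 1.98% and 2.28% of it. Its regions were uneven in place. The 250 kb from 27405054 to 27655053 had the highest mean coverage, with 2.05%, 2.98% and 3.45% in replicates 1, 2 and 3. They held 14 of the combined regions there. In replicate 3 the 250 kb from 26905054 were higher, at 3.67%. The middle of the arm, between 2 Mb and that last 1 Mb, was covered over 0.607%, 1.40% and 1.64%. The end was higher in 3 of 3 replicates, by 0.420 ± 0.326 percentage points (SD, n = 3; exact sign-flip permutation test, two-sided, p = 0.25). The difference depended on the limits: it was 0.738 with the last 0.5 Mb, 0.081 with the last 2 Mb (exact sign-flip permutation test, two-sided, p = 0.5), and -0.080 when only regions with at least the median score of their list were kept.

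The last 3R region of each list lay short of the assembled end, and none was among the strongest. It ended 9982 bp from the end of the sequence in replicate 1, 26296 bp in replicate 2, 10050 bp in replicate 3 and 9813 bp in the combined list. In replicate 2 it was a different site, from 27876843 to 27878757. By score the last regions ranked 52 of 110, 168 of 257, 209 of 285 and 425 of 572. That of replicate 1 scored 0.89, the 3R median of its list. Of the 23 combined regions in the last 1 Mb, 1 (4.35%) was matched in each of the 3 replicates, against 10.5% over 3R. Another 6 were matched in 2 replicates, 7 in a single one, and 9 (39.1%) nowhere, against 42.0% nowhere over 3R. The region matched in each, from 27446736 to 27448782, was also the strongest there, and its scores were 0.86, 0.75 and 0.68 in replicates 1, 2 and 3. The combined regions next in score were those from 27455624 to 27456644 (0.59), found in no replicate list, and from 27514122 to 27516170 (0.57), found in replicates 1 and 2. The distal 1 Mb of 2L and 2R was covered over 1.55% ± 0.78 and 1.47% ± 0.73 (SD, n = 3 each), and 3R lay on both sides of these values. On 3L, where 1 region of replicate 2 spanned 23.5 kb, the distal 1 Mb was covered over 4.32% ± 1.79 (SD, n = 3), above 3R in 3 of 3 replicates (exact sign-flip permutation test, two-sided, p = 0.25). X, at 2.47% ± 1.47 (SD, n = 3), was also above 3R in 3 of 3 replicates, with differences of -0.147, -1.58 and -0.772 percentage points for 3R minus X (exact sign-flip permutation test, two-sided, p = 0.25).

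The few strongest sites were largely the same between replicates. The 5 strongest 3R regions of replicate 1 were the 5 strongest of replicate 2, and 4 of them were among the 5 strongest of replicate 3. Among the 10 strongest of each, replicates 1 and 2 shared 6, replicates 1 and 3 shared 7, and replicates 2 and 3 shared 8. The 5 sites are also the 5 highest combined regions among those found in all 3 lists. The first, from 2905218 to 2909044 (3827 bp), scored 1.64, 1.81 and 1.82 in replicates 1, 2 and 3. The next, from 9484914 to 9488044 (3131 bp), scored 1.77, 1.73 and 1.82. Within the dense centromere-side block lay the region from 56532 to 60404 (3873 bp), with scores of 1.90, 1.78 and 1.79. These 3 lie 2.91, 9.48 and 0.057 Mb from the centromere-side end; being chosen for a high combined score in all 3 lists, they are given as a description.

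The region from 14067224 to 14071086 (3863 bp), about midway along the arm, was the strongest 3R region of replicate 1, with a score of 2.17. It had rank 5 in replicate 2 and rank 9 in replicate 3, with 1.61 and 1.33. The fifth site is the region at the first base of the arm described above. The remaining members of the 10 strongest ran from 12759090 to 12761258 (combined score 1.27), from 636640 to 640004 (1.06), from 8537128 to 8540222 (1.02), from 224648 to 230468 (1.02) and from 6439194 to 6441316 (0.90). Of the 10, 4 lay in the proximal 2 Mb and 6 beyond it, and 8 were still found in all 3 lists when 50% of both partners had to overlap. Replicates 2 and 3 ranked all 10 within their first 20, whereas replicate 1 ranked 7 there and put the regions at 636640 and 8537128 at 84 and 52 of 110.

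**Figure D3:**
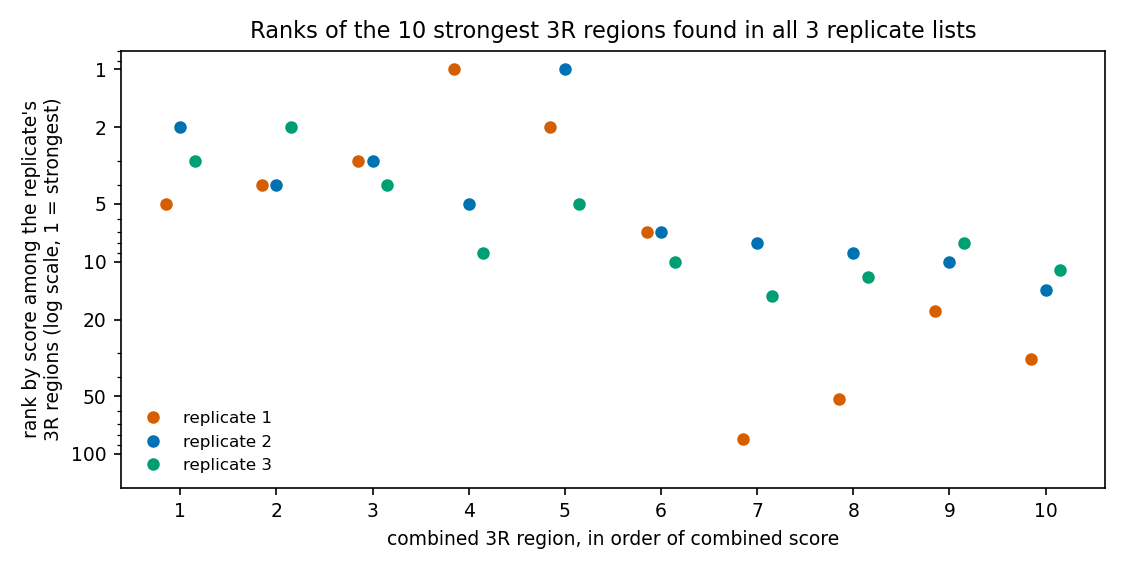
Rank by score among the 3R regions of each replicate (y axis, log scale, 1 is the strongest) for the 10 strongest combined 3R regions found in all 3 replicate lists, in order of combined score (x axis). The first 5 lie within rank 9 in each replicate; the regions in places 7 and 8 drop to ranks 84 and 52 in replicate 1.

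Other strong regions were seen in some lists only. The region from 1085164 to 1086658 of replicate 2 had rank 6 in replicate 2 (score 1.32) and rank 7 in replicate 3 (1.57) and was absent from replicate 1. A site just past 2 Mb, from 2000875 to 2002384 in replicate 3 (score 1.65) and from 2001772 to 2003836 in replicate 1 (1.37), was absent from replicate 2 and from the combined list. It was the only 3R site that 2 replicate lists shared and the combined list lacked. The strongest 3R region of replicate 3, from 3179387 to 3181198 with a score of 1.94, was in no other list. Of the 10 strongest of replicate 1, those from 26786973 to 26788336 (1.27) and from 8304622 to 8306176 (1.26) were in no other replicate, and only the first was in the combined list. These regions were chosen after their values had been seen.

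The longest regions were not always the strongest. In the combined list the longest was the first of the arm (6209 bp), followed by those from 17724 to 23898 (6175 bp) and from 26901072 to 26907120 (6049 bp). Next came the regions from 224648 to 230468 (5821 bp) and from 3521948 to 3526698 (4751 bp). The 6175 bp region ranked 81 of 572 by score, and it was split into 2 regions in replicate 2 and 3 in replicate 3. The 6049 bp region was 1 region each in replicates 2 and 3 (5066 and 5604 bp) and absent from replicate 1. Across 3R regions, score and length were related with Spearman's rho of 0.20, 0.54 and 0.55 in replicates 1, 2 and 3, as a description of each list.

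Many 3R regions of a replicate could be found again in another, fewest in replicate 1, which has the shortest list. Of the replicate 1 regions, 60.9% overlapped a region of replicate 2 by at least 1 bp and 58.2% one of replicate 3. Replicates 2 and 3 shared most, with 70.8% of replicate 2 found in replicate 3 and 63.5% the other way. Only 25.7% of replicate 2 and 22.1% of replicate 3 were found in the shorter list of replicate 1. The mean over the 6 directions was 50.2%, and 67.2% without replicate 1. Shared bases over all covered bases (the Jaccard index) came to 0.48 for replicates 2 and 3, against 0.21 for 1 and 2 and 0.18 for 1 and 3. Beyond the proximal 2 Mb the mean was 48.0% on 3R, and it was 50.2% for 2R, 51.6% for 3L, 55.4% for X and 56.1% for 2L, with no test run.

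Strong regions were found again more often than weak ones in replicates 2 and 3, but not in replicate 1. Of the 64 regions of replicate 2 with the highest scores, 46.9% were found in both other replicates, against 12.3% of the 65 with the lowest. In replicate 3 these shares were 40.8% of the highest 71 and 13.9% of the lowest 72. In replicate 1 they ran the other way, at 44.4% of the highest 27 and 60.7% of the lowest 28. Scores of overlapping regions were related with a Spearman's rho of 0.56 over 182 pairs for replicates 2 and 3, 0.60 over 64 pairs for 1 and 3, and 0.39 over 67 pairs for 1 and 2. Regions of a list share its library and depth, so these are descriptions.

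Of the 572 combined 3R regions, 60 (10.5%) were found in all 3 replicate lists, against 21.0% of combined regions over all sequences. Beyond the proximal 2 Mb the share was 9.67% on 3R, against 11.8% on the other 4 arms together (2L 14.4%, 2R 10.9%, 3L 11.1% and X 11.3%), so the 3R share was near that background. Another 127 were matched in 2 replicates, 145 in a single one and 240 (42.0%) nowhere. Of the regions in 2 lists, 119 came from replicates 2 and 3. The share in all 3 lists was 15.1% in the proximal 2 Mb, 9.94% in the middle and 4.35% (1 of 23) in the last 1 Mb. Without replicate 1, 31.3% of combined 3R regions were found in both remaining lists.

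The 60 regions in all 3 lists had the highest median length and score. Their median length was 2141 bp and their median score 0.59, against 1164 bp and 0.45 for the 240 in none. Median length rose with the number of lists, at 1635 bp for 1 list and 1977 bp for 2, but median score did not, at 0.39 and 0.44. They were spread widely: 10 lay in the first 1 Mb, the window from 7 to 8 Mb held 6, and 24 of the 28 windows held at least 1. Their median gap was 296.0 kb, and the longest interval among them was 2720 kb long, from 15688279 to 18408039. The shortest 3R region was 1301 bp in the replicate lists and 1001 bp in the combined list. Of the 200 combined 3R regions shorter than 1301 bp, 0 were in all 3 lists and 170 in none. Of the 20 over 3 kb, 14 were in all 3 lists and 1 in none. A match needs only 1 bp of overlap, which a long region meets more easily. How far this links length and number of lists was not tested. When 50% of both partners had to overlap, 54 combined 3R regions (9.44%) were in all 3 lists.

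Some very short combined regions carried the highest scores of the arm without appearing in any replicate list. The regions from 9805568 to 9806568 and from 8296858 to 8297858, both 1001 bp, scored 3.59 and 3.37, ahead of every other 3R region. The third, from 832386 to 833390 (1005 bp), scored 1.78, and it was also the strongest combined region of the proximal 2 Mb. The 2 highest values were not particular to 3R. In the combined list 3.59 was also the highest score on 2L and on X, and 3.37 that on 2R. In the combined list 6 of the 240 regions in no replicate list scored above 1, against 9 of the 60 in all 3, a larger share.

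**Figure D4:**
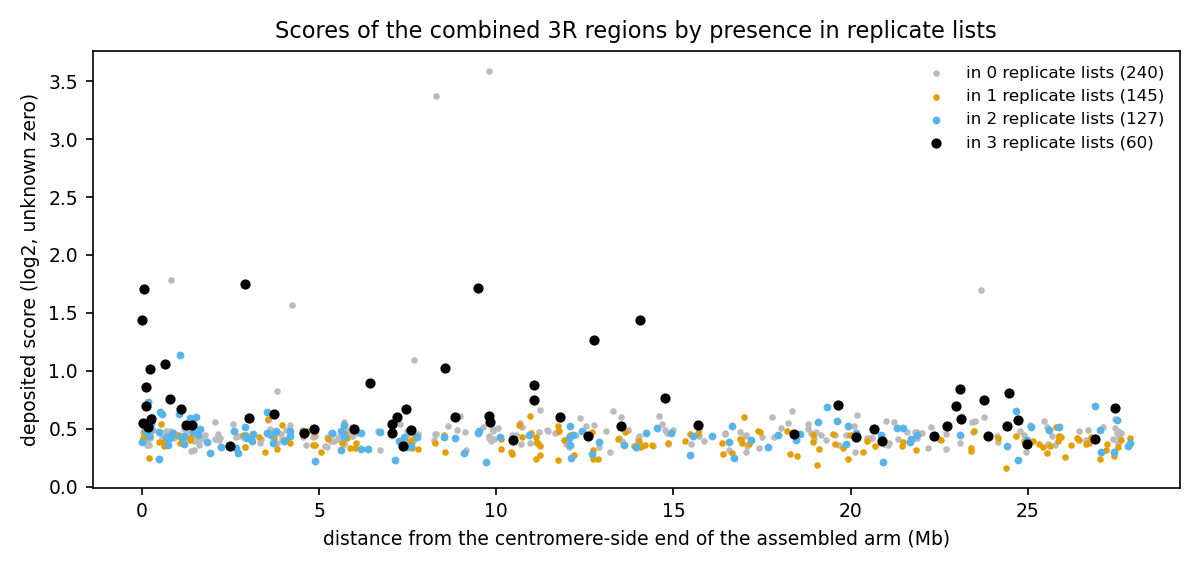
Deposited score (y axis, log2 with unknown zero) of the 572 combined 3R regions by distance from the centromere-side end (x axis, Mb), coloured by the number of replicate lists in which each was found. Regions in all 3 lists (black, 60) reach 1.75, and the 2 highest points, at 3.59 and 3.37, are in 0 replicate lists.

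Scores on 3R were low for the genome, and beyond the proximal 2 Mb they lay near or below those of other arms. The median score of 3R regions lay under that of the whole list in 3 of 3 replicates, by 0.10, 0.22 and 0.19 (exact sign-flip permutation test, two-sided, p = 0.25). Only 34.5%, 8.95% and 16.1% of 3R regions reached the median score of their list in replicates 1, 2 and 3. Beyond the proximal 2 Mb, 3R medians were 0.89, 0.47 and 0.59, those of 2L 0.89, 0.49 and 0.60, and those of 3L 0.91, 0.46 and 0.59. The replicate 1 medians of 3R and 2L fell on the same tied value, 0.890388. It is the commonest score of that list, held by 85 regions in all and by 5 of 110 on 3R, which share rank 52. 2R, at 0.91, 0.51 and 0.60, and X, at 0.99, 0.57 and 0.69, were higher than 3R in 3 of 3 replicates (exact sign-flip permutation test, two-sided, p = 0.25 each). Along 3R itself the proximal 2 Mb scored 0.040 ± 0.035 above the rest in the median (SD, n = 3), with differences of 0.00034 in replicate 1 and 0.060 in both others. With a 1 Mb limit the difference was 0.021 ± 0.062 (SD, n = 3; exact sign-flip permutation test, two-sided, p = 0.75), in the combined list 0.019, and among regions of at least the median score of their list 0.115.

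Clusters were taken as runs of at least 3 regions with gaps of at most 20 kb. There were 2 on 3R in replicate 1, 15 in replicate 2, 16 in replicate 3 and 54 in the combined list. They held 5.45%, 23.0%, 21.8% and 41.3% of the 3R regions, so the count moved with the length of the list. Most were small: 9 of 15 in replicate 2, 12 of 16 in replicate 3 and 31 of 54 in the combined list had exactly 3 regions. Both clusters of replicate 1 lay in the proximal 2 Mb. Beyond 2 Mb, replicate 2 had 10 clusters and replicate 3 had 11, and 5 of each overlapped one of the other.

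The leading clusters of the combined list were the dense block at the centromere side, in a pair of runs. The run from 106478 to 256092 held 19 regions over 149.6 kb, with 24.8% of the span inside regions, and 5 of the 19 were found in all 3 replicate lists. The run from 2 to 75906 held 14 regions over 75.9 kb, with 45.9% inside regions and 3 of the 14 in all 3 lists. Next came 3 runs of 8 regions each in the body of the arm, from 12034300 to 12081414, from 5690728 to 5723740 and from 4831200 to 4884700. Their scores were modest, with highest values of 0.52, 0.56 and 0.50, against 1.02 and 1.71 in the pair at the centromere side. Replicates 1, 2 and 3 had 1, 3 and 3 regions in the first of these, 0, 5 and 2 in the second and 1, 5 and 3 in the third.

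Over all neighbouring 3R regions, inside clusters and out, the median gap was 175.9 kb in replicate 1, 56.7 kb in replicate 2, 45.8 kb in replicate 3 and 24.9 kb in the combined list. Gaps of up to 20 kb made up 15.6%, 30.1% and 29.6% of all gaps in the 3 replicates. Gaps over 100 kb made up 64.2%, 35.9% and 31.3%, and spanned 94.4%, 79.3% and 75.2% of the arm. Beyond the proximal 2 Mb the median gap on 3R was 207.1, 76.1 and 65.7 kb. It exceeded that of 2L, 2R and X in 3 of 3 replicates (exact sign-flip permutation test, two-sided, p = 0.25 each), and that of 3L, at 149.5, 76.8 and 68.7 kb, in 1 of 3. The coefficient of variation of these gaps was 1.19, 1.10 and 1.09 on 3R, below that of 2L (mean 1.41 ± 0.083, SD, n = 3) and 2R (1.43, 1.29 and 1.23) and above that of 3L (1.05, 1.01 and 1.05) in 3 of 3 replicates. Against X, at 1.01, 1.31 and 1.23, the difference went both ways (exact sign-flip permutation test, two-sided, p = 0.75). Spacing on 3R was thus more even than on 2L and 2R in these lists, with the same smallest p of 0.25 (exact sign-flip permutation test, two-sided).

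**Figure D5:**
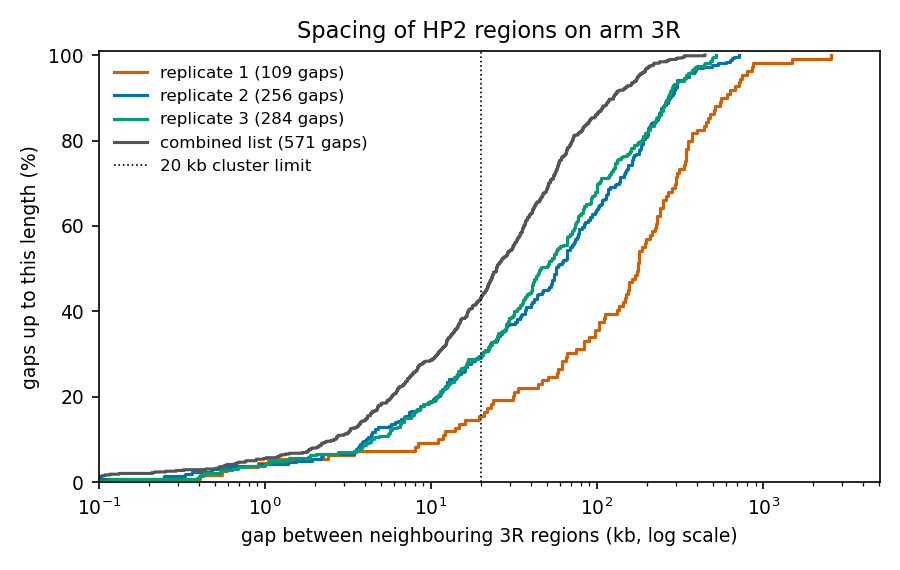
Share of gaps between neighbouring 3R regions (y axis, percent) up to a given length (x axis, kb, log scale), 1 line per list, with the 20 kb cluster limit dotted. Replicates 2 and 3 run together with medians of 56.7 and 45.8 kb, and replicate 1 lies to the right at 175.9 kb.

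Long stretches of 3R had no HP2 region in any list. The longest ran from 7801493 to 8247599, over 446.1 kb. It was followed by those from 14988449 to 15323765 (335.3 kb), from 9142625 to 9470263 (327.6 kb), from 6720223 to 7046367 (326.1 kb) and from 10142717 to 10416597 (273.9 kb). With the 4 lists laid over each other, 75 stretches over 100 kb remained and made up 43.6% of the arm.

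In single replicates the longest stretch was 2541 kb in replicate 1, 715.3 kb in replicate 2 and 522.6 kb in replicate 3, and it lay in a different place in each. That of replicate 1, from 15688180 to 18229417, held 17 regions of replicate 2, 18 of replicate 3 and 38 of the combined list, and 8 of the 17 were found in replicate 3, against 182 of all 257 replicate 2 regions on 3R (70.8%). Their median scores, 0.46 in replicate 2 and 0.60 in replicate 3, were near the 3R medians of these lists (0.48 and 0.59). Read totals are not given, so whether replicate 1 lacked depth there was not tested. The longest stretch of replicate 3, from 12907014 to 13429630, also held 0 regions of replicates 1 and 2, and 5 combined regions.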

How the data were processed

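The data are 4 lists of enriched regions: 1 for each of the 3 HP2 libraries, called against its own input per the labels, and 1 combined. Per the submitters' processing notes Bowtie 0.12.7 was used, and per the file headers positions refer to FlyBase release 5. The caller, its threshold and how replicates were combined: not given in the sources used here. Each region carries a score that the authors deposited with no stated scale. Differences between common scores matched log2 ratios of whole numbers up to 12 (tolerance 1e-06) in 9 to 16 of 29 cases, against at most 1 in base e or 10, so the deposited scores were read as log2 values with an unknown zero and compared within a list.

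The members, lists and limits were chosen with earlier results of these data known; the 250 kb limit came from looking at the profile. Regions belonged to a part of the arm by their midpoint, coverage was cut at its limits, and overlap meant at least 1 bp. Differences over replicates were tested with exact sign-flip permutation tests, which cannot go below 0.25 here. Named regions followed a rule: the 10 strongest combined regions in all 3 lists, the 5 longest, the 3 strongest of the proximal 2 Mb, of the last 1 Mb and of those in no replicate list, the ends, the 5 largest clusters and the 5 longest stretches. No gene was assigned, since the available gene table is of release 6. The interval functions were tested on simulated data. Depth is unknown, so no counting error is given. Tools were matplotlib 3.10.9, scipy 1.17.1, pandas 2.3.3 and numpy 2.4.6 under Python 3.11.15.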

Additional observations from a re-analysis of the deposited data

How the results depend on the processing

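Of 73 alternatives over 10 results, 65 were counted as kept. For tested differences this meant the same sign of the mean, whatever the p-value. Cluster counts had to stay within a set factor, and the share in all lists within its 95% interval. Other values had to move by less than their SD. That SD was wide, at 72.2 kb for median gaps and 1114 kb for longest stretches. The combined-list values of 24.9 and 446.1 kb were therefore counted as kept. With regions below the median score of their list left out, the distal-end difference turned from 0.420 to -0.080 percentage points, clusters fell from a mean of 11 to 0, the mean of the median gaps rose from 92.8 to 465.8 kb and the mean of the longest stretches from 1260 to 4110 kb; fewer regions are left by construction. Clusters numbered 21.3 with a 50 kb gap limit and 54 in the combined list. Leaving out each replicate gave 40.1% to 67.2% for overlap between replicates (main 50.2%), 10.8% to 31.3% for combined regions in all lists left (main 10.5%), 8.50 to 15.5 clusters, median gaps of 51.3 to 116.3 kb and longest stretches of 619.0 to 1628 kb, the last added after seeing the data. Without replicate 1, the lowest in region number, overlap was 67.2% and the combined share 31.3%. 3R stayed below the other arms in coverage and regions per Mb, and proximal coverage above the rest, under all alternatives run. No paired analysis was possible because the inputs, which carry the same replicate numbers, have no region list analysed here; this concerns pairing with inputs, and the sign-flip tests did compare parts of the genome within each replicate. The distal-end difference was 0.738 and 0.081 with limits of 0.5 and 2 Mb, and the proximal score difference ranged from 0.019 to 0.115 over its alternatives. Without read totals, the depth limit of a missing region is unknown.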
